A study of Drosophila melanogaster with 21 samples.

Results

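Transcript levels in the lower tract of mated Drosophila melanogaster females were compared between 24 h and 6 h after the end of mating. The comparison takes the 3 arrays labelled 24 h and the 3 labelled 6 h, which are 6 of the 21 arrays of the series, and all 13966 probe sets that are not controls. The tracts at both times came from females that were 3 days old and had been kept at 23 C. The dissected piece was the upper uterus with the sperm-storage organs and accessory glands, and between 12 and 40 tracts were pooled for an array. The other 15 arrays are from unmated females (n = 5) and from mated females at 0 h (n = 6) or 3 h (n = 4), and they served to estimate the spread. Times count from the end of mating, and the labels name no strain, mutant or agent. Nothing in the labels says that pools came from separate cultures, so a p-value measures the spread between pools. A dissected tract is a mixture of tissues, and fewer cells of a type cannot be told apart from less RNA per cell in these data.

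In this part of the female, sperm are kept in the seminal receptacle and the paired spermathecae, whose secretory cells release proteins into the lumen. The accessory glands, or parovaria, add further secretion, and eggs pass through the uterus on their way out. Mating brings sperm and seminal fluid proteins into the tract and is followed by egg laying and by changes in secretion, muscle and immune gene activity. The comparison asks which transcripts differed between the first hours and the day after mating.

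A value below called a signal is the linear array intensity of 1 probe set, and a log2 change is the mean log2 signal at 24 h minus that at 6 h. The test was limma's moderated test with all 21 arrays in 1 model of 5 groups, and a gene passed with an adjusted p (Benjamini-Hochberg over all probe sets) under 0.05. Judged by gaps between the numbers that the labels give the arrays, there were 6 blocks of arrays, an inferred grouping whose meaning no label states. At 24 h, replicates 1, 2 and 3 lay in blocks 3, 4 and 6, and at 6 h replicates 1, 2 and 3 lay in blocks 4, 5 and 6, so that blocks 4 and 6 each held 1 array of each time.

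The arrays of block 6 stood apart from the other 4. On the first principal component of the brighter probe sets, the 24 h arrays scored 41.13, 26.88 and -50.41 and the 6 h arrays 8.48, -14.61 and -85.78, the lowest of each time being replicate 3. Block accounted for 94.5% of this component and the 5 groups for 23.5%. Across the brighter probe sets, 24 h replicate 3 correlated at r = 0.918 with 6 h replicate 3 and at r = 0.768 with 24 h replicate 1. RNA integrity was read from the control transcripts as the 3' signal over the 5' signal, whose mean log2 ratio was 3.78 ± 1.48 at 24 h and 2.82 ± 0.73 at 6 h (SD, n = 3 each). It was lowest on the block 6 arrays, at 2.33 for 24 h and 1.99 for 6 h. Results are therefore given with the difference within block 4 and within block 6, each a difference of 1 array from 1 array.

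The secretory markers of the dissected tissue did not all behave alike. Send1 was bright at both times, Gld was dim at both, and Send2, given below, was far brighter at 6 h. Send1, a spermathecal serine protease, had signals of 5404.9, 5431.9 and 7022.7 at 24 h and of 3940.2, 5871 and 8794.3 at 6 h. CG9897, another member of the spermathecal list, had 8816.5, 7717.3 and 14041.5 at 24 h and 7464.1, 11830.1 and 13860.2 at 6 h. The groups overlapped for both genes, with log2 changes of 0.01 ± 0.41 (SE) and -0.12 ± 0.42. Gld, glucose dehydrogenase, was dim throughout, with 12.4 to 40.4 at 24 h and 6.7 to 22.5 at 6 h.

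Few transcripts passed the test of 24 h against 6 h, and the test could miss many changes. On simulated data without blocks, it recovered 5% of 2-fold, 34.3% of 4-fold, 60.8% of 8-fold and 98% of 64-fold changes. The small count therefore does not show that few transcripts differed. Of 13966 probe sets, 5 passed (0.0358%), of which 4 (0.0286%) were lower at 24 h and 1 (0.00716%) was higher. At an unadjusted p under 0.05 there were 325 lower (2.33%) and 618 higher (4.43%). All 24 h arrays lay below all 6 h arrays for 606 probe sets (4.34%) and above them for 688 (4.93%). The median log2 change over 10844 genes was 0.04, and centring each array on its median moved it to -0.09. With 1 probe set a gene, 4 of 10844 genes were lower at 24 h (0.0369%) and 0 higher, and these were Send2, PGRP-SC2, Ect3 and CG8180. At an unadjusted p under 0.05, 265 genes were lower (2.44%) and 467 higher (4.31%), and 538 (4.96%) had all 24 h arrays above all 6 h arrays.

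**Figure D1:**
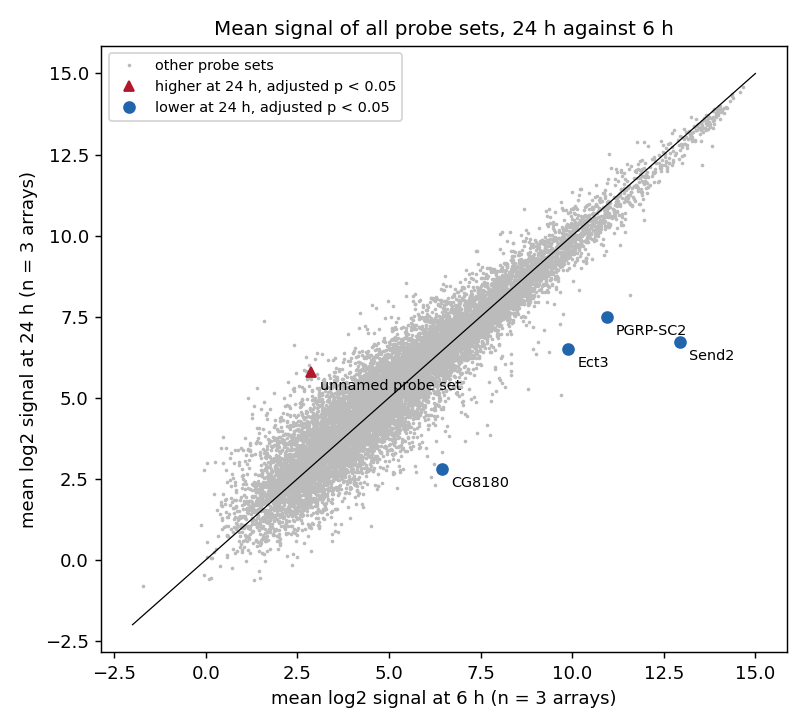
Mean log2 signal of each probe set at 24 h (vertical axis) against that at 6 h (horizontal axis), n = 3 arrays each, for 13966 probe sets, with the line of equal signal. The 4 named genes that passed lie below the line, and Send2 is the farthest from it.

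Send2, spermathecal endopeptidase 2, is a serine protease made by the secretory cells of the spermatheca. Its signals were 298.9, 75.2 and 50.9 at 24 h and 6797.3, 7167.8 and 10118 at 6 h. Every 6 h array was above every 24 h array, and the brightest 24 h array was replicate 1. Send2 fell 75.5-fold, a log2 change of -6.24 ± 0.81 (SE, 95% interval -7.92 to -4.56, adjusted p = 0.003 in limma). The difference was -6.50 in block 4 and -7.64 in block 6. Geometric mean signals over the course were 67 (unmated), 389 (0 h), 9935 (3 h), 7900 (6 h) and 105 (24 h). Against unmated females, 24 h differed by 0.64 ± 0.72 on the log2 scale (adjusted p = 0.873 in limma).

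Send2 was the 1 member of the 5 measured genes of the spermathecal and accessory gland list that passed, and the other 4 overlapped between the times. The list's median change was -0.12. CG32834 had 5134, 6317.7 and 12053.5 at 24 h and 5657.2, 13541.9 and 8558.9 at 6 h, a log2 change of -0.25 ± 0.55.

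PGRP-SC2 is a secreted peptidoglycan recognition protein that cleaves bacterial peptidoglycan and is known for dampening the Imd immune pathway. Signals were 142.4, 132.6 and 301.4 at 24 h and 1364.5, 2442.3 and 2301.1 at 6 h. The groups did not overlap, and 24 h replicate 3 was the highest of its time. PGRP-SC2 fell 11-fold, a log2 change of -3.47 ± 0.48 (SE, adjusted p = 0.00339 in limma). The difference was -3.36 in block 4 and -2.93 in block 6. The course of its geometric mean ran through 132 (unmated), 229 (0 h), 1110 (3 h), 1972 (6 h) and 179 (24 h).

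Of the 7 peptidoglycan recognition proteins measured, PGRP-SC2 was the 1 that passed. PGRP-SB1, another secreted amidase of the family, had 268.1, 254.5 and 411 at 24 h and 621.4, 824 and 1069 at 6 h. These groups did not overlap either, but the log2 change of -1.43 ± 0.49 did not pass (adjusted p = 0.55 in limma). The list's median was -0.30, and it ran between -0.54 without 6 h replicate 1 and 0.02 without 6 h replicate 2. Of 8 antimicrobial peptides and 17 components of the Toll and Imd pathways, 0 passed in limma. Of the pathway components, Dif and Fadd were higher at an unadjusted p under 0.05 (4.31% of all genes). The median of the 17 was 0.275, with -0.06 in block 4 and 0.55 in block 6, and 0.09 without 6 h replicate 3. DptB, the antibacterial peptide Diptericin B, had 282.9, 461.6 and 1460.1 at 24 h and 835.4, 1107.6 and 2581.2 at 6 h, and its groups overlapped. The antimicrobial list did not share this direction, with 5 of 8 above 0 (53% of all genes) and a median of 0.14. That median was -0.08 without 24 h replicate 3. In the list, 1 gene had all 24 h arrays above all 6 h arrays (4.96% of all genes) and 0 below. Dif, a transcription factor of the Toll pathway, had 70.5, 75 and 51.8 at 24 h and 45.6, 49.8 and 9.5 at 6 h (log2 change 1.22 ± 0.54, adjusted p = 0.699 in limma).

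Ect3 encodes a beta-galactosidase of lysosomes. Its signals were 53.9, 118.1 and 116.8 at 24 h and 631.2, 919.7 and 1489.7 at 6 h, with no overlap. Ect3 fell 10.5-fold, a log2 change of -3.39 ± 0.48 (SE, adjusted p = 0.00339 in limma). The difference was -2.42 in block 4 and -3.67 in block 6. The gene was high at 6 h alone: geometric means were 153 (unmated), 113 (0 h), 110 (3 h), 953 (6 h) and 90.6 (24 h).

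CG8180, whose role is not annotated here, was also high at 6 h alone. It had 6.7, 5.5 and 9.3 at 24 h and 158.9, 141.5 and 29.8 at 6 h, and 6 h replicate 3 was the lowest of its time. CG8180 fell 12.5-fold, a log2 change of -3.64 ± 0.58 (SE, adjusted p = 0.0143 in limma). The difference was -4.85 in block 4 and -1.68 in block 6. Geometric means at the other times were 7.13 in unmated females, 7.11 at 0 h and 6.5 at 3 h, well under the array medians of 35.6 to 57.7, so the size of this change is uncertain. With 16 added to each signal before taking logs it was -2.22 (adjusted p = 0.00548 in limma).

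The probe set that was higher at 24 h is not listed in the annotation used here and stays unnamed. It had signals of 63.2, 69 and 38.8 at 24 h and 9.2, 3 and 13.9 at 6 h, with no overlap. It rose 7.61-fold, a log2 change of 2.93 ± 0.52 (SE, adjusted p = 0.0446 in limma). The difference was 2.91 in block 4 and 1.48 in block 6. The 6 h signals lay far under the array medians, so this size is uncertain too. With 16 added to each signal the change was 1.56 (adjusted p = 0.0966 in limma), and the adjusted p was 0.125 with quantile normalization, 0.0849 with median centring and 0.0685 with block as a fixed effect. Geometric means were 75.4 (unmated), 53.4 (0 h), 65.4 (3 h), 7.27 (6 h) and 55.3 (24 h), so 6 h was the low time.

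These calls differed in how far they rested on single arrays. Send2, PGRP-SC2 and Ect3 passed in each fit that left out 1 of the 6 arrays, at adjusted p up to 0.0412 in limma. Without both block 6 arrays PGRP-SC2 and CG8180 still passed, at 0.0271 and 0.00393. Send2 and Ect3 had adjusted p of 0.0696 and 0.0634 in that fit, with log2 changes of -5.54 and -3.26. CG8180 did not pass without 6 h replicate 1 (0.0609), 6 h replicate 2 (0.137) or 24 h replicate 2 (0.107), nor with block as a fixed effect (0.0589). The unnamed probe set did not pass without 6 h replicate 2 (0.18) or without 24 h replicate 1 (0.115), 2 (0.224) or 3 (0.063). With only the 6 arrays in the fit, 0 probe sets passed in limma, the smallest adjusted p was 0.447, and 626 had an unadjusted p under 0.05.

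**Figure D2:**
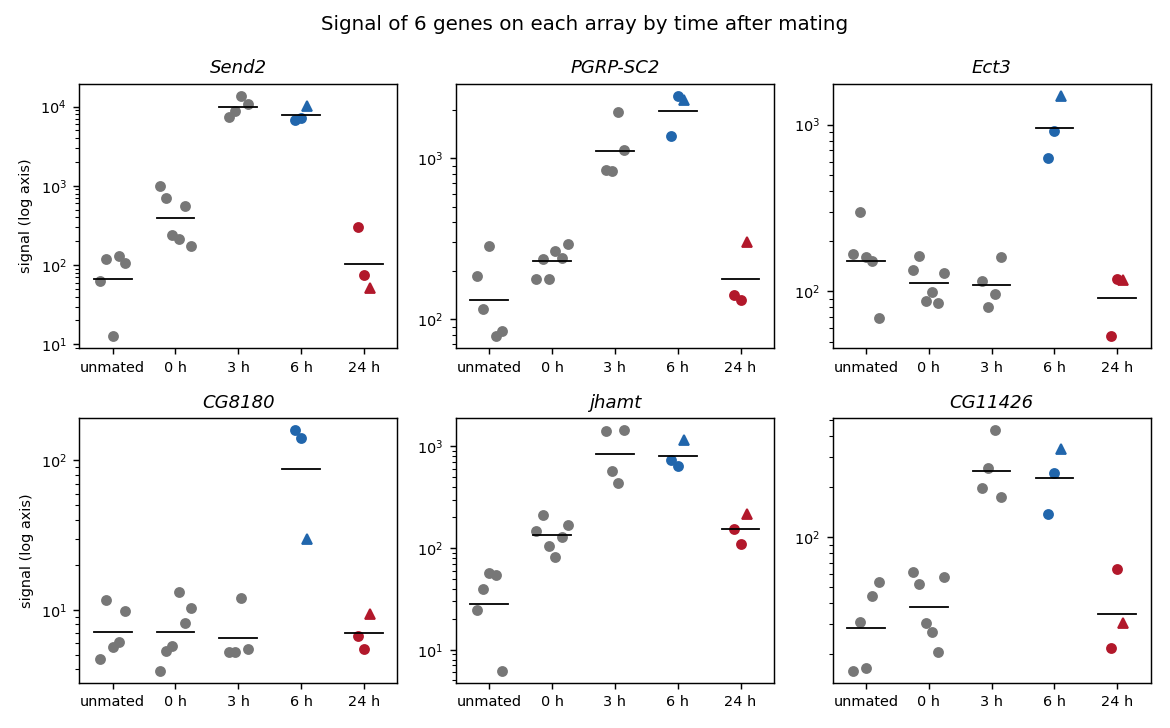
Signal on each array (points, logarithmic vertical axis) and geometric mean (bars) of 6 genes by time after mating, with triangles for the arrays of block 6. Send2, PGRP-SC2, Ect3 and CG8180 passed the test of 24 h against 6 h, and jhamt and CG11426 did not, although their groups did not overlap.

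Other genes had large differences that did not pass. Brighter genes here are those whose higher group mean, of 24 h and 6 h, reached the median signal of 41.9. The 6 with the smallest p among brighter genes lower at 24 h had adjusted p between 0.096 and 0.231 in limma. None of them overlapped between the times, which a pick by small p on these same arrays favours. Among all genes, 4.44% had all 24 h arrays below all 6 h arrays. CG11426, of the wunen family of lipid phosphate phosphatases, had 21.6, 64 and 30.4 at 24 h and 137.9, 240.9 and 337.8 at 6 h. The log2 change was -2.69 ± 0.57 (SE, adjusted p = 0.153 in limma), with -1.11 in block 4 and -3.47 in block 6. Its 3 h geometric mean of 249 was close to the 224 at 6 h, while unmated and 0 h females had 28.6 and 38.2. CG14687 had a like order, with geometric means of 91.9 (unmated), 145 (0 h), 441 (3 h), 424 (6 h) and 151 (24 h) and a log2 change of -1.49 ± 0.36.

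In contrast, esc, CG18004 and fs(1)N were highest at 6 h. The genes esc and fs(1)N counted as brighter by their 6 h arrays alone, so this order follows in part from how they were picked. The same holds for CG3842, given below, and for CG11426, given above. The gene esc, a subunit of Polycomb repressive complex 2, had 5.1, 12.3 and 15.7 at 24 h and 92, 73.9 and 99.2 at 6 h, against 6.12 at 3 h, a log2 change of -3.14 ± 0.61. With 16 added to each signal the change of esc was -1.96, so its size is uncertain. CG18004 had 17.6, 108.3 and 54 at 24 h and 270.1, 303.2 and 214.4 at 6 h, a log2 change of -2.47 ± 0.56. CG3842, a short-chain dehydrogenase by sequence, had 13.9, 28.8 and 33.6 at 24 h and 138.1, 100.7 and 138 at 6 h, a log2 change of -2.39 ± 0.56. The 24 h level of CG3842, 23.8 as a geometric mean, lay below those of all the other times, 37.8 in unmated females, 117 at 0 h and 77.7 at 3 h.

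Among brighter genes with higher values at 24 h, the 10 with the smallest p had adjusted p between 0.0979 and 0.229 in limma. Their groups did not overlap, which the pick by small p again favours. Among all genes, 4.96% had all 24 h arrays above all 6 h arrays. NetB, the secreted axon guidance ligand Netrin-B, had 74.4, 77.3 and 78.2 at 24 h and 15.6, 15.5 and 33 at 6 h, a log2 change of 1.94 ± 0.38. CG10553 had 304, 397.3 and 189.5 at 24 h and 104.5, 51.8 and 16.1 at 6 h, a log2 change of 2.68 ± 0.52. For both genes the 6 h arrays were the low ones of the course. Geometric means were 86.8 and 211 in unmated females, 52.6 and 235 at 0 h, and 50.7 and 215 at 3 h. Both were picked for a 6 h level below that at 24 h, so this order follows in part from the pick. NetB counted as brighter by its 24 h arrays alone.

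CG7083 and CG30460 had the same order, with the same limit, and CG30460 counted as brighter by its 24 h arrays alone. CG7083 had 227, 228.6 and 152.6 at 24 h and 72.5, 82.1 and 62.8 at 6 h, against 256 in unmated females. CG30460 had 51.6, 52.5 and 36.7 at 24 h and 12.7, 9.9 and 6.1 at 6 h. The other probe sets annotated to CG30460 were dimmer and had log2 changes of -0.37 and 0.68, against 2.34 for the one named. With 16 added to each signal the one named had 1.30.

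By contrast, CG13813, Tom, ImpL1 and CG4702 had their highest geometric mean of the course at 24 h. They counted as brighter genes by their 24 h arrays alone, so this order follows in part from how they were picked. CG13813 had 135.7, 61.3 and 67.9 at 24 h and 21.5, 5.4 and 4.8 at 6 h, with 9.6 in unmated females, 16.9 at 0 h and 8.07 at 3 h (log2 change 3.33 ± 0.67). With 16 added to each signal its change was 1.96, so the size is uncertain. Tom, a Bearded family regulator of Notch signalling, had 35, 804.7 and 267.8 at 24 h and 19.7, 10.3 and 31 at 6 h (log2 change 3.41 ± 0.78). Its 24 h replicate 1 lay close to the 6 h arrays, and 24 h replicate 2 was far above them.

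ImpL1, an ecdysone-inducible gene, had 89.1, 119.6 and 24.7 at 24 h and 3.6, 6.7 and 14.5 at 6 h, with block differences of 5.05 in block 4 and 0.77 in block 6. CG4702 had 111.5, 115.2 and 41.2 at 24 h and 5.7, 5.7 and 23 at 6 h, with block differences of 4.34 and 0.84. In both genes the difference was mostly between the arrays outside block 6. Their log2 changes of 3.185 and 3.156 were 1.806 and 1.901 with 16 added to each signal, so these sizes are uncertain. The last of the 10, obst-F and CG14915, had log2 changes of 2.25 ± 0.48 and 1.98 ± 0.47. They too counted as brighter by their 24 h arrays alone. Obst-F is a chitin-binding protein of the obstructor family.

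**Figure D3:**
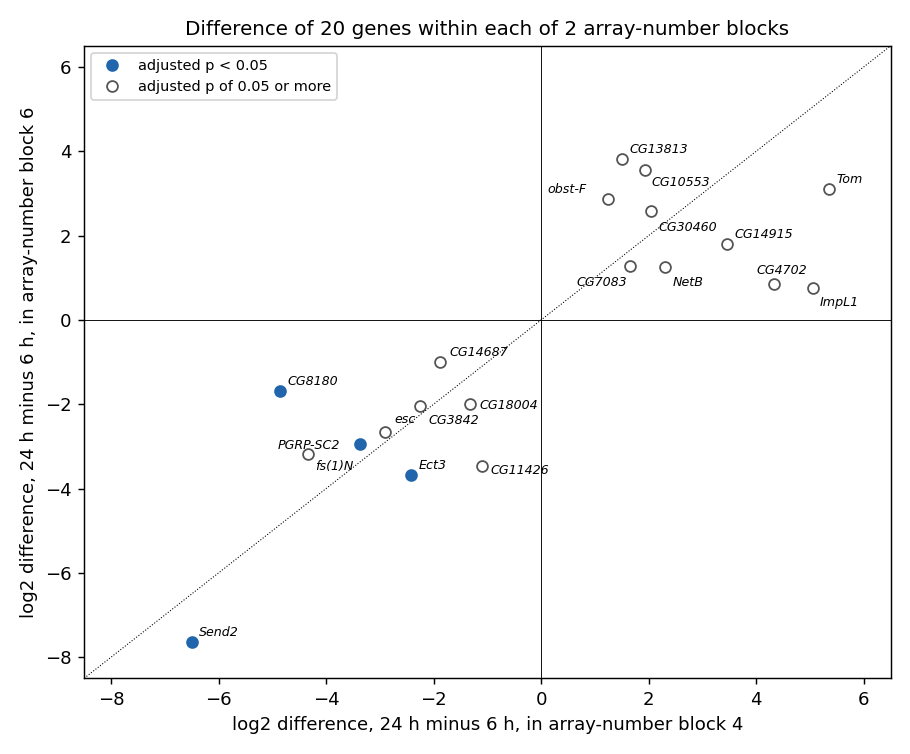
Log2 difference of 24 h minus 6 h within block 6 (vertical axis) against that within block 4 (horizontal axis) for the 20 named genes, each a difference of 1 array from 1 array. Filled points passed the test over all arrays, and the dotted line marks equal differences. The groups of all 20 genes do not overlap, which fixes the sign in both blocks, so only the sizes are to be compared.

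Of the juvenile hormone genes, 3 of 8 had groups with no overlap, 1 lower and 2 higher at 24 h. Of the ecdysone genes 2 of 20 did, both higher. Among all genes, 4.44% had groups with no overlap and were lower at 24 h, and 4.96% were higher. Counts this small do not set either list apart from all genes. jhamt encodes juvenile hormone acid methyltransferase, which completes the synthesis of juvenile hormone. It had 153.8, 108.5 and 217.5 at 24 h and 734.7, 638.2 and 1143.7 at 6 h. The log2 change was -2.40 ± 0.66 (SE) and did not pass (adjusted p = 0.384 in limma), with -2.76 in block 4 and -2.40 in block 6. Over the course its geometric mean was 28.4 in unmated females, 134 at 0 h and 847 at 3 h. JhI-26, a juvenile hormone-inducible gene, had 307.6, 232 and 178.6 at 24 h and 125.5, 95.4 and 112.8 at 6 h, a log2 change of 1.08 ± 0.33 (adjusted p = 0.475 in limma).

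Of 8 juvenile hormone genes and 20 ecdysone genes, 0 passed in limma. At an unadjusted p under 0.05 there were 1 higher and 1 lower juvenile hormone gene and 2 higher ecdysone genes. The shares of all genes were 4.31% higher and 2.44% lower. ImpE2, which is ecdysone-inducible like ImpL1, had 98.7, 136.6 and 14.7 at 24 h and 8.3, 8.3 and 3.8 at 6 h (log2 change 3.19 ± 0.82, adjusted p = 0.334 in limma). None of 12 octopamine, tyramine and mating signal receptors and ligands passed or had an unadjusted p under 0.05 in limma.

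Oocyte and germline transcripts had a higher mean level on 6 h replicates 1 and 2 than on the 24 h arrays, and 6 h replicate 3 did not share this. None of the 32 genes of this list passed in limma, 7 were lower and 0 higher at an unadjusted p under 0.05 (2.44% and 4.31% of all genes), and 7 had all 24 h arrays below all 6 h arrays (21.9%, against 4.44% of all genes). The lists were chosen with earlier results of these data known, so an excess over all genes in this or another list is not independent evidence. The median log2 change of the germline list was -0.98, against 0.04 over all genes, and was -1.77 in block 4 and 0.38 in block 6. The mean log2 signal of the list was 5.14, 4.85 and 5.87 at 24 h and 6.95, 6.80 and 5.43 at 6 h. The block 6 arrays were thus the highest at 24 h and the lowest at 6 h. Without 6 h replicate 3 the median was -1.77, without both block 6 arrays -1.97, and without the dimmer probe sets -0.30.

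Single genes of the list, named for their small p, were lower at 24 h on all arrays. Unlike the mean of the list, they were not highest on replicate 3 at 24 h. fs(1)N, known from the torso pathway and the eggshell, had 25.4, 6.1 and 13.4 at 24 h and 123.2, 167.1 and 121.5 at 6 h (log2 change -3.41 ± 0.79, adjusted p = 0.211 in limma). With 16 added to each signal its change was -2.34. The receptor tyrosine kinase gene tor had 11.8, 4.8 and 10.4 at 24 h and 78.3, 48.5 and 14.7 at 6 h (-2.19 ± 0.57, adjusted p = 0.345 in limma). The difference held in both blocks for fs(1)N, at -4.34 and -3.18, and was mostly in block 4 for tor, at -4.03 against -0.50.

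A further gene of the list, picked after its values were seen, was dhd, which encodes the thioredoxin of the oocyte. It had 232.1, 65.4 and 1576.8 at 24 h and 4113.7, 2818.7 and 2467.7 at 6 h, while geometric means were 20.8 in unmated females, 14.8 at 0 h and 12.5 at 3 h. At 24 h, replicate 3 was far above the other arrays of its time, and the log2 change of -3.41 ± 2.11 did not pass (adjusted p = 0.824 in limma). The summed signal of the 32 genes was 2759 to 4434 at 24 h and 4897 to 11109.5 at 6 h. It was 2490 to 2813 in unmated females, 1588 to 5325 at 0 h and 1703 to 3094 at 3 h. At 1 array, 0 h replicate 6, both this list (5325) and the chorion list (32749.9, against at most 1275 on the other 0 h arrays) were high.

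Chorion and vitelline membrane genes, which follicle cells make for the eggshell, did not share the 6 h level. Their summed signal was 1098 to 1487 at 24 h and 788 to 970 at 6 h. The list's median was 0.41, with 0.71 without 6 h replicate 2 and 0.26 without 24 h replicate 3. Of its 14 genes 11 were above 0, against 53% of all genes, and 0 passed in limma or had an unadjusted p under 0.05. The yolk protein gene Yp1, picked after its values were seen, had 24709.9, 20705.8 and 28163.1 at 24 h and 19960.2, 30244.7 and 29646.6 at 6 h. The part that germline tissue or eggs on the arrays may have in the differences of other genes was not tested.

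DNA replication genes followed the germline list. Of 25 genes, 0 passed in limma, 4 were lower at an unadjusted p under 0.05 (2.44% of all genes), and 8 had all 24 h arrays below all 6 h arrays (32%, against 4.44% of all genes). The median log2 change was -0.99, with -1.52 in block 4 and 0.03 in block 6. It was -0.57 without 6 h replicate 1 and -0.64 without 24 h replicate 1. RPA2, a subunit of the single-strand DNA binding complex, had 70.4, 82.4 and 107.8 at 24 h and 291.6, 207.4 and 168.6 at 6 h. Its log2 change was -1.34 ± 0.32 (adjusted p = 0.244 in limma), with -1.82 in block 4 and -0.65 in block 6. RfC4, a subunit of the clamp loader, had 146.6, 111.2 and 195.7 at 24 h and 340.2, 396.5 and 223 at 6 h (-1.08 ± 0.34).

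Cyclins and mitotic regulators had a median of -0.46, with -0.61 in block 4 and 0.45 in block 6. Of 16 genes, 0 passed in limma, and 1 was lower at an unadjusted p under 0.05 (2.44% of all genes). The median was -0.06 with block as a fixed effect. ncd, a kinesin of the spindle, had 21.1, 108.7 and 61.3 at 24 h and 207.6, 238.5 and 84 at 6 h, and its groups overlapped.

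**Figure D4:**
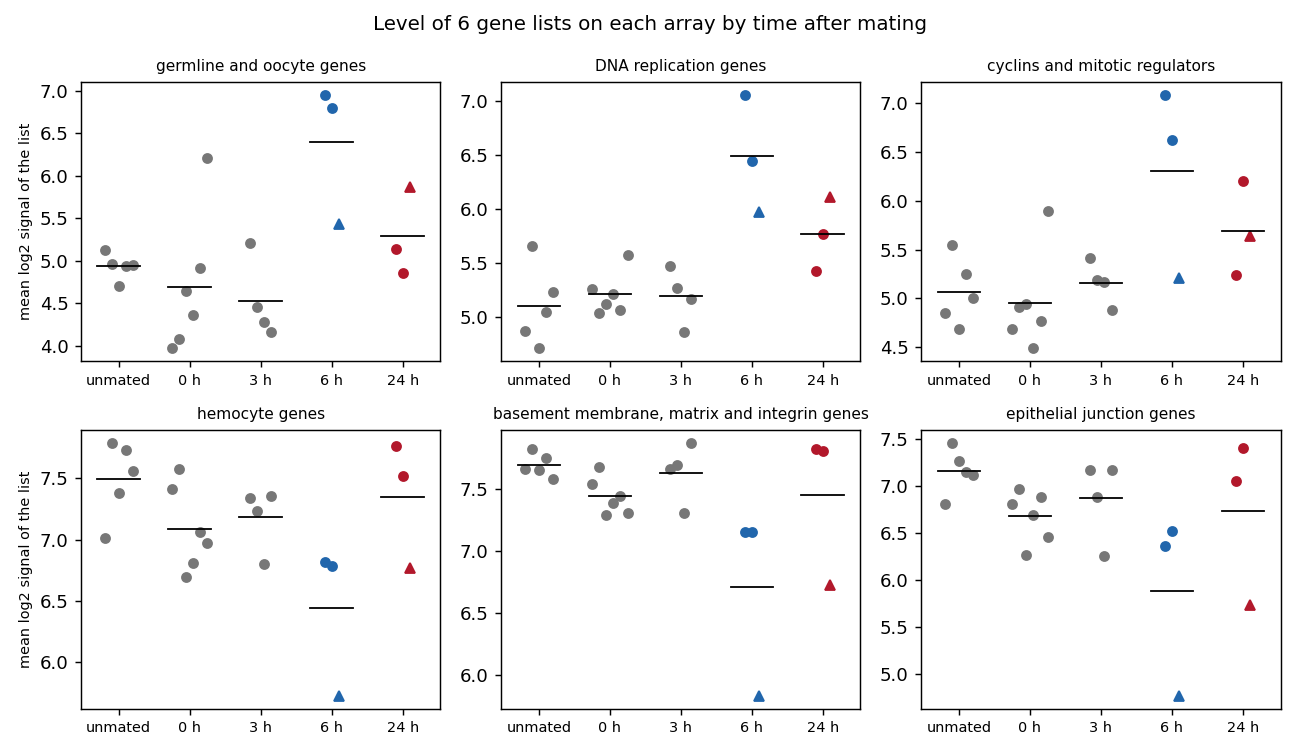
Mean log2 signal of 6 gene lists on each array (points) and mean of each time (bars), with triangles for the arrays of block 6. Germline and DNA replication genes were highest on 6 h replicates 1 and 2, and the block 6 arrays of both times were the low ones for hemocyte, matrix and junction genes.

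Heat shock genes had the lowest median of the 41 lists, -1.25 over 6 genes. None passed in limma, and 3 were lower at an unadjusted p under 0.05 (2.44% of all genes). These 3 also had all 24 h arrays below all 6 h arrays (4.44% of all genes). Hsp26, a small heat shock protein that ovaries make without stress, had 23.8, 6.1 and 277.2 at 24 h and 1586.8, 992.1 and 365.3 at 6 h. The log2 change was -4.60 ± 1.21 (adjusted p = 0.355 in limma), with -8.02 in block 4 and -0.40 in block 6. l(2)efl, a small heat shock protein of the alpha-crystallin family, had 1752.2, 1723.9 and 1892.9 at 24 h and 3640.4, 3610.4 and 4591.5 at 6 h. Its log2 change was -1.13 ± 0.30 (adjusted p = 0.355 in limma), with -1.08 in block 4 and -1.28 in block 6. The difference thus varied with block for Hsp26 and little for l(2)efl. The list's median was -2.03 in block 4 and 0.06 in block 6.

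Several lists had higher medians at 24 h, and none of their members passed. For the junction, matrix, hemocyte and neuronal lists, every 6 h array lay below the means of unmated, 0 h and 3 h females. Mean log2 signals in unmated females were 7.16, 7.69, 7.49 and 4.89 in that order. The 24 h arrays spanned 5.73 to 7.40, 6.72 to 7.82, 6.76 to 7.76 and 4.24 to 4.76. Higher here thus means higher than at 6 h. Epithelial junction genes had the highest median, 1.04, with 18 of 21 above 0, against 53% of all genes. It was 1.07 in block 4 and 1.11 in block 6. No gene of the list had groups without overlap, and 3 were higher at an unadjusted p under 0.05 (4.31% of all genes). The mean log2 signal of the list was 7.05, 7.40 and 5.73 at 24 h and 6.36, 6.52 and 4.76 at 6 h, so that both block 6 arrays were low. Without 6 h replicate 3 the median was 0.26, and without 24 h replicate 2 it was 0.57. alpha-Cat, which links cadherins to actin, had 387.8, 544.8 and 90.5 at 24 h and 196.2, 105.1 and 19.5 at 6 h (1.86 ± 0.75). scrib, an apicobasal polarity gene, had 173.3, 87.7 and 70.3 at 24 h and 49.4, 101.6 and 12.1 at 6 h (1.38 ± 0.55).

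Basement membrane, matrix and integrin genes had a median of 0.69, with 18 of 20 above 0, against 53% of all genes. At an unadjusted p under 0.05, 4 were higher (4.31% of all genes). The median was 0.74 in both blocks, 0.27 without 6 h replicate 3, 0.44 without 24 h replicate 1 and 1.25 without 24 h replicate 3. LanB1 and LanB2, the beta and gamma chains of laminin, had log2 changes of 1.61 ± 0.55 and 2.19 ± 0.86. LanB1 had 120, 249.8 and 51.2 at 24 h and 52.9, 67.6 and 15.2 at 6 h. LanB2 had 385.3, 543.5 and 65.4 at 24 h and 154.7, 93.9 and 9.9 at 6 h. Within each block the 24 h array was the higher for both genes, while over all arrays 24 h replicate 3 lay below 6 h replicates 1 and 2.

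Hemocyte genes had a median of 0.95, with 13 of 14 above 0, against 53% of all genes. At an unadjusted p under 0.05, 5 were higher (4.31% of all genes), and 0 passed in limma. The median was 0.58 in block 4 and 0.82 in block 6, and it was 0.60 without 6 h replicate 3 and 0.61 without 24 h replicate 1. The summed signal of the 14 genes was 2867 to 5425 at 24 h and 2051 to 2742 at 6 h. eater, a phagocytosis receptor, had 88.9, 46.8 and 17.1 at 24 h and 30.4, 28.1 and 1.6 at 6 h (1.90 ± 0.80). lz, a Runx transcription factor of crystal cells that spermathecal precursors also use, had 41.9, 29.6 and 15.7 at 24 h and 2.1, 32.8 and 3.3 at 6 h (2.14 ± 0.77).

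Neuronal genes had a median of 0.59, with 18 of 22 above 0 (53% of all genes), 2 higher at an unadjusted p under 0.05 (4.31% of all genes) and 0 passing in limma. The list was dim, with 4 of 22 below the lower quartile of the array on all 6 arrays. Its median was 0.25 when 16 was added to each signal and 0.31 without 6 h replicate 2. elav, the pan-neuronal RNA-binding protein gene, had 10.7, 23.3 and 18.5 at 24 h and 1.8, 3.8 and 2.7 at 6 h. Syn, synapsin of synaptic vesicles, had 12.1, 16.3 and 6.5 at 24 h and 1.1, 0.9 and 3.2 at 6 h. The summed signal of the 22 genes was 854 to 1321 at 24 h and 583 to 852 at 6 h. Muscle genes summed to 28614 to 29778 at 24 h and 23616 to 32822 at 6 h. Their median of 0.20 was -0.02 without 6 h replicate 3, 0.11 without 24 h replicate 1 and 0.41 without 6 h replicate 2. After median centring it was 0.07, against -0.09 over all genes. Fat body genes summed to 6153 to 10240.5 at 24 h and 7752 to 12265 at 6 h. Their median of -0.05 was -0.47 with block as a fixed effect and ran between -0.45 and 0.06 with 1 array left out (24 h replicate 1 and 24 h replicate 2). The part of these cell types in other differences was not tested.

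Seminal fluid, sperm and testis genes were mostly dim. Of 20 seminal fluid protein genes and 19 sperm and testis genes, 1 each was above the array median on all 6 arrays. The seminal fluid list summed to 1209 to 2739 at 24 h and 1776 to 5366 at 6 h, against 1064 to 2962 in unmated females. The sperm and testis list summed to 333 to 617 at 24 h and 391 to 781 at 6 h, against 506 to 737 in unmated females. Whether this signal came from the male was not tested. Acp53Ea, a seminal fluid protein gene, had 1.9, 0.9 and 0.7 at 24 h and 1.9, 11.1 and 8.3 at 6 h. Mst84Db, a sperm tail protein gene, had 16.6, 13.4 and 16.6 at 24 h and 13.8, 89.1 and 87.4 at 6 h. For both genes 6 h replicate 1 lay among the 24 h arrays.

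Among metabolic genes, cytochrome P450 genes leaned to 24 h, with 58 of 81 above 0 (53% of all genes) and a median of 0.27. None passed in limma, and 12 were higher and 1 lower at an unadjusted p under 0.05 (4.31% and 2.44% of all genes). The list's median was 0.14 after median centring, against -0.09 over all genes. Cyp6a8, an inducible P450, had 203.7, 280.3 and 290.5 at 24 h and 28.3, 91.9 and 68.2 at 6 h. The fitted log2 change was 2.18 ± 0.52 (adjusted p = 0.231 in limma), with 3.31 in block 4 and 2.09 in block 6. Cyp12d1-d, a mitochondrial P450 linked to insecticide resistance, had 1511.3, 1375.3 and 588.4 at 24 h and 500, 307.1 and 119.5 at 6 h (2.02 ± 0.58, adjusted p = 0.439 in limma). Neither gene overlapped between the times.

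Mitochondrial ribosomal proteins lay the other way, with 61 of 64 below 0 (3 above, against 53% of all genes above) and a median of -0.32. None passed in limma, and 1 was lower at an unadjusted p under 0.05 (2.44% of all genes). The median was -0.50 in block 4 and -0.31 in block 6. It was -0.53 without 6 h replicate 2 and -0.49 without 24 h replicate 3. mRpL17 had 157, 293.2 and 478.6 at 24 h and 580.6, 391.1 and 684.3 at 6 h, and the groups overlapped. Secretory pathway and endoplasmic reticulum genes had 26 of 29 below 0 and a median of -0.29, with -0.01 in block 4 and -0.49 in block 6. opm, a p24 cargo protein, had 68.9, 102.4 and 135.6 at 24 h and 144.5, 247.5 and 296.7 at 6 h (-1.16 ± 0.41). Oxidative phosphorylation subunits had 49 of 65 below 0 and a median of -0.29, which was -0.04 without 6 h replicate 3, -0.05 without 24 h replicate 1, -0.54 without 24 h replicate 3 and -0.09 with block as a fixed effect. Of the glycolytic enzymes, 7 of 8 were below 0 with a median of -0.34.

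For the remaining lists, single members are given, which were named for their small p within the list. Obp99a, an odorant-binding protein, had 3178.2, 5185.7 and 6192.6 at 24 h and 8783.1, 12681.8 and 14953.3 at 6 h. Its log2 change was -1.34 ± 0.41 (adjusted p = 0.475 in limma), and its groups did not overlap. CG17134, an aspartyl protease by sequence, had 130.9, 72.7 and 6.2 at 24 h and 1199.8, 283.5 and 260.6 at 6 h. It had a log2 change of -3.52 ± 1.15 (adjusted p = 0.529 in limma), and its geometric means were 6.65 in unmated females, 10.4 at 0 h and 347 at 3 h.

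The larval serum protein gene Lsp2, made by fat body, had 79.2, 89.5 and 122.9 at 24 h and 140.1, 325.9 and 261.7 at 6 h (-1.26 ± 0.44). Of 89 cuticle protein genes, 6 were higher at an unadjusted p under 0.05, a share near the 4.31% of all genes, and 0 passed in limma. Cpr47Ee had 28.6, 24 and 26.9 at 24 h and 4.7, 7.8 and 5.6 at 6 h (2.16 ± 0.74). The transcription factor cbt had 262, 249.8 and 218.2 at 24 h and 96.7, 166.8 and 51.4 at 6 h (1.37 ± 0.56), in an immediate early list whose median was 0.84, with 0.22 without 6 h replicate 3, 0.40 without 24 h replicate 1, 0.39 without 24 h replicate 2 and 1.32 without 24 h replicate 3. The segment polarity gene en had 26.9, 65.6 and 11.1 at 24 h and 4.4, 5.8 and 3.6 at 6 h (2.58 ± 0.67, adjusted p = 0.345 in limma). In its list of sex determination and tract regulators, 4 of 13 genes were higher at an unadjusted p under 0.05 (4.31% of all genes). None of the 13 passed in limma.

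**Figure D5:**
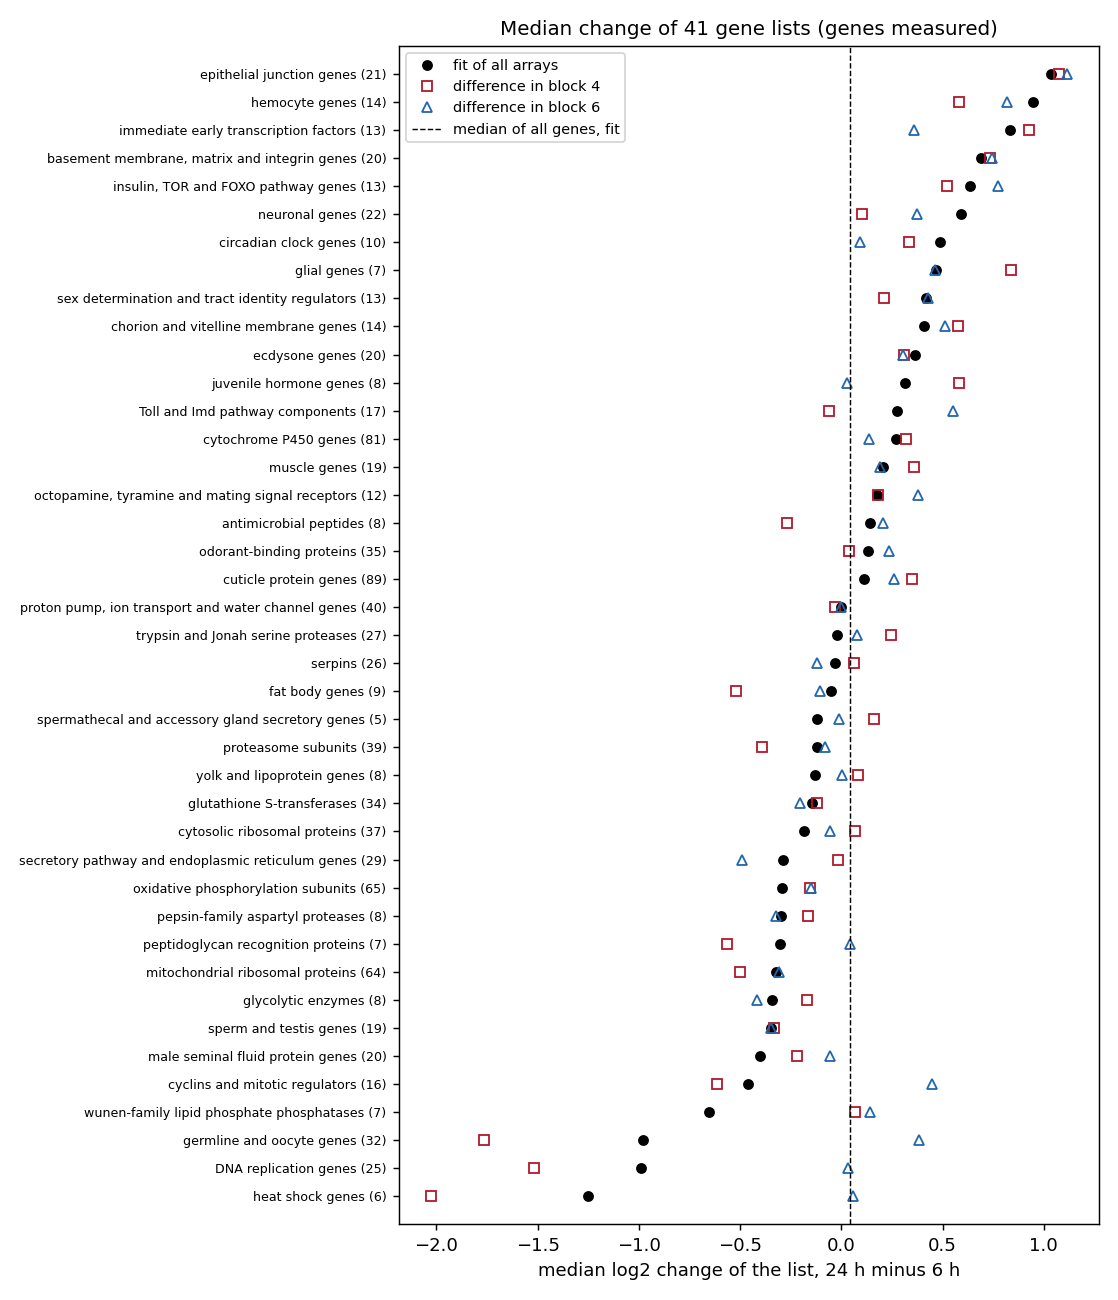
Median log2 change of 24 h minus 6 h of 41 gene lists in the fit of all arrays (filled circles), within block 4 (squares) and within block 6 (triangles), with the number of genes measured and the median of all genes (dashed line). Heat shock, germline and DNA replication genes were lower in block 4 and near or above 0 in block 6, while junction and matrix genes had like medians in both.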

How the data were processed

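RNA of 21 pooled tract samples was measured on single-colour oligonucleotide arrays. The deposited file gives a linear intensity for every probe set. RMA is named in the submitters' processing notes, with no version. RMA output would be in logs with matched quantiles, whereas the deposited intensity was linear, with quartiles that varied by array and a 2% trimmed mean in common. The authors' probe summary is therefore uncertain. The number of arrays limits the precision.

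From the deposited intensity, log2 was taken with no pseudocount or further scaling. Of 14010 probe sets, 44 controls were left out. Of the 13966 tested, the platform annotation gave 12443 a single symbol, 327 several and 1196 none. Symbols of 12394 were updated by gene identifier with the RefSeq table of Release 6 plus ISO1 MT, used for names only. A gene was its brightest probe set, which gave 10844 genes. Within a group, at most 0.508% of values were identical between arrays, so each array counted as 1 replicate.

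Groups came from the labelled times. The test was limma 3.58.1 under R 4.3.3 (5 group means, 21 arrays, moderated variance, 2-sided). The procedure was tested on simulated data. Named genes were the 10 highest and 10 lowest log2 changes that passed with the brighter group at or above the median signal of all probe sets (41.9), filled by smallest p, with the passing and the 2 smallest-p members of each list. The members and the 41 lists, which hold 962 different measured genes, were chosen with earlier results of these data known. After matching, 5 strays were left out. Alternatives were quantile normalization, median centring, 16 added to each signal, a filter on dim probe sets, fewer arrays, block as a fixed or random effect, a term for RNA integrity, array weights, robust moderation, a single probe set for each gene and each array left out. Leaving out both block 6 arrays was chosen after seeing the data.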

Additional observations from a re-analysis of the deposited data

Results flagged for a closer look

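Samples far from the others of their group were looked for among the 20 named genes and the unnamed probe set in the groups of 4 to 6 arrays, which are the unmated, 0 h and 3 h groups, and chance gives such a gap in about 1 in 20 groups. Of 63 groups tested, 5 had one. The groups of 24 h and 6 h hold 3 arrays and were too small for this check. CG8180 had a signal of 12 on 3 h replicate 3, above the next at 5.5. CG18004 had 139.6 on unmated replicate 5, above the next at 44.9. Tom had 102.8 on unmated replicate 4, above the next at 36.1, and 7.8 on 0 h replicate 1, below the next at 19.4. ImpL1 had 19.7 on 0 h replicate 3, above the next at 9.5.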

How the results depend on the processing

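The count of probe sets higher at 24 h was 1, and 0 with quantile normalization, median centring, only the 24 h and 6 h arrays, only the 4 arrays of blocks 4 and 6, or 1 probe set per gene. It was 2 with 16 added to each signal, 3 without the dimmer probe sets, with block as a fixed effect or with robust moderation, 5 with block as a random effect and 7 with array weights. Leaving out 1 array gave 0 to 10. The count lower was 4, and 0 with only the 24 h and 6 h arrays or only the 4 arrays of blocks 4 and 6, and 2 without both block 6 arrays. It was 6 with 16 added, where esc and CG11426 joined, 6 with array weights, where tor and CG4238 joined, 5 with block as a random effect and 3 without the dimmer probe sets. Leaving out 1 array gave 3 to 4. Beside the 0 calls from the 4 arrays of blocks 4 and 6, limma gave 934 at an unadjusted p under 0.05. No named gene changed sign in any setting. Their groups did not overlap, however, so leaving out arrays or adding 16 to each signal could not change a sign. Of 19 settings, Send2 passed in 16, PGRP-SC2 in 17 and Ect3 in 16, and of 18 settings CG8180 passed in 12 and the unnamed probe set in 8. CG10553 passed in 7 of 19 settings and NetB in 4 of 19. Of 41 list medians, 16 changed sign in at least 1 of 12 alternatives, and these 16 lay between -0.65 and 0.20. Among them were the spermathecal list (0.04 with quantile normalization, 0.20 with block as a fixed effect) and cuticle genes (-0.02 with median centring). Median centring moves all genes by the same amount, and the median over all genes was then -0.09. Antimicrobial peptides (-0.38) and seminal fluid genes (0.47) changed sign without the dimmer probe sets. The yolk, wunen and trypsin lists did so with block as a fixed effect (0.11, 0.08 and 0.23). No paired analysis was possible because the labels give the groups no shared replicate numbers to pair by. Array-number block, which is not such a number, stood in for it: as a fixed effect it gave 7 calls in all, as a random effect 10, and on the 4 arrays of blocks 4 and 6 it gave 0 in limma, with the 934 above. Dim genes such as CG8180 and the unnamed probe set have uncertain sizes.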
